A study of Mus musculus with 9 samples.

Results

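Collagens are the trimeric proteins that form the fibrils and sheets of the extracellular matrix, and each chain is encoded by its own gene. The collagen chain genes were taken here as every row of the expression table whose symbol consists of Col, a type number, the letter a and a chain number. This rule uses names only and found 44 of the 22161 genes in the table. They comprise 11 fibrillar, 8 basement membrane and 25 other collagens, and 37 of them had a mean of at least 10 normalized counts over all libraries and were tested with 15740 genes in all. The 7 untested genes were the fibrillar Col2a1 and, among the other collagens, Col9a1, Col9a2, Col10a1, Col17a1, Col22a1 and Col28a1.

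RNA sequencing had been performed on whole kidneys of C57BL/6 mice in 3 groups of 3 animals, called WT, KO and DKO below and numbered 1 to 3. WT mice are labelled as wild type, with no further genotype given. KO mice were Pkd2fl/fl;Pax8rtTA;TetO-cre, and DKO mice were Ift88fl/fl;Pkd2fl/fl;Pax8rtTA;TetO-cre. Doxycycline was given by mouth to every group, WT included, in a course of 2 weeks that began on postnatal day 28 (2 mg/ml). The mice were 10 weeks old when kidneys were collected. Pkd2 encodes polycystin-2, a channel of the primary cilium whose loss causes polycystic kidney disease, and Ift88 encodes a transport protein needed to build the cilium. The Pax8 driver acts in tubule epithelium, so fibroblasts, vessels and immune cells keep both genes. The comparison of KO with WT asks what changes with loss of Pkd2 in the tubule, and that of DKO with KO what changes when Ift88 is deleted as well. In whole tissue, fewer cells of a type and less RNA per cell cannot be told apart.

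Fibrillar collagens form the rods of interstitial matrix. Types I and III are the bulk of scar and are made mainly by fibroblasts, type V starts and limits fibrils, and type XI is its relative in cartilage. Type IV chains build the meshwork of basement membranes: α1 and α2 chains are found in nearly all of them, and α3, α4 and α5 chains form the network of the glomerular filter and of part of the tubule. The remaining genes encode the beaded filaments of type VI, the collagens that decorate fibrils, the short-chain network collagens and transmembrane collagens.

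Normalized totals were between 40454151 and 42874467 per library. Pkd2 was 14095 ± 375 normalized counts in WT, 5118 ± 414 in KO and 4687 ± 789 in DKO (SD, n = 3 in each). Ift88 was 1085 ± 41 in WT, 1140.2 ± 66.0 in KO and 752 ± 71.4 in DKO (SD, n = 3 in each). Kidney markers were abundant in every library. The sum over 7 tubule genes was 662644 to 709931 normalized counts in WT, 564487 to 591851 in KO and 593912 to 684961 in DKO. All KO sums were below all WT sums, and 2 of the 7 genes, Umod and Slc12a1, fell in KO against WT (adjusted p = 0.0319 and 0.00929, limma). These are 28.6% of the list, against 1.25% of all genes called lower. The list did not move as one: Slc34a1 and Lrp2 had KO means at 102% and 109% of WT, and the other 5 means were lower in KO. The sum over 5 podocyte genes was 15332 to 15700 in WT, 13084 to 13911 in KO and 14517 to 15861 in DKO, again without overlap of KO and WT. The part of these markers in the collagen values was not tested. In erythroid and adipocyte markers KO 3 stood apart. It had 6174 normalized counts summed over 5 erythroid genes against 87 to 1012 in the other libraries. Over 4 adipocyte genes it had 1664, against 182 to 815. Of these markers, only Lep was at 0 in any library. KO 3 was also the lowest of its group in 22 of the 37 tested collagens, and DKO 1 was the lowest of its group in 24. WT 3 was the lowest of its group in 16 and the highest in 18, so the WT libraries differed among themselves as well. No prefix of the mouse names occurs in more than one group, and WT 3 and KO 3 carry another prefix than the other mice of their groups, so a difference tied to the prefix and one tied to genotype cannot be told apart.

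Of the tested collagens, 1 gene changed. Col1a1, the α1 chain of type I collagen, fell to 23.8% of its KO mean in DKO kidneys, and the other 36 tested collagens did not pass the test in that comparison. No collagen passed in KO against WT, and none passed in DKO against WT. The test was a single limma fit on log2(normalized count + 1) with an adjusted p below 0.05 over all 15740 genes (Benjamini-Hochberg), and fold changes below are on that log2 scale with their standard errors.

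In KO against WT, 0 of 37 collagens were called, where 2.4% of all genes were, 1.14% higher and 1.25% lower. At an unadjusted p below 0.05 there were 7 higher and 3 lower collagens, 18.9% and 8.11% of those tested, against 9.36% and 8.67% of all genes. edgeR and DESeq2, run on the 7 libraries whose read counts could be recovered, called 0 as well. Those libraries include KO 3 but neither WT 1 nor KO 1. In this comparison edgeR called only 11 genes in all, so its 0 does not show that collagens were unchanged. It called few genes in the other comparisons too. Its counts of 0 there, and in the classes and lists below, are limited in the same way. In DKO against KO, 0 collagens were higher and 1 was lower, or 2.7% of those tested, against 0.267% of all genes lower and 0.127% higher, 0.394% in all. Without adjustment, 2 higher and 9 lower collagens had a p below 0.05, 5.41% and 24.3%, against 4.19% and 6.49% of all genes. In that comparison edgeR called 0 and DESeq2 called 2 collagens, Col1a1 and Col1a2. The shares above are those of limma, and the counts of all genes these tools called there are given in the last section. In DKO against WT, 0 of 37 were called by limma, edgeR and DESeq2, where limma called 0.229% of all genes, 0.0762% higher and 0.152% lower. There, 2 were higher and 1 lower at an unadjusted p below 0.05, or 5.41% and 2.7%, against 5.93% and 5.81% of all genes. DESeq2 gave no adjusted p for 4 collagens of the other class and 1 fibrillar collagen in DKO against WT. It gave none for 1 of the other class in each remaining comparison, so these could not be called.

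The KO counts depended on KO 3. Without it, 4 collagens were called in KO against WT, with Col1a1, Col1a2 and Col8a1 higher and Col6a4 lower. These are 8.11% higher and 2.7% lower, against 1.33% and 1.19% of all genes in the same fit. In DKO against KO, 6 were then called, all lower: Col1a1, Col1a2, Col5a1, Col6a1, Col6a2 and Col15a1, or 16.2% against 0.635% of all genes. The erythroid and adipocyte sums given above move with that library, and their part in the result was not tested. Without WT 3 only Col1a1 was called in KO against WT, and without DKO 2 only Col19a1, which was lower; 1.86% and 2.1% of all genes were called in these fits. With the count of 1 lower collagen in DKO against KO, leaving out any one of WT 1, KO 1, KO 2, DKO 1, DKO 2 or DKO 3 gave 0.

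Length-scaled levels showed a kidney dominated by basement membrane chains. Normalized counts were divided by the kilobases of each gene's protein-coding exons in GENCODE M21. In WT, Col4a3 had the highest mean level of all collagens, at 1864 ± 306 normalized counts per kb. Col4a1 at 1487 ± 150.5 and Col4a4 at 1120.2 ± 85.5 came next (SD, n = 3). In WT 3, however, Col4a1 was above Col4a3, at 1645 and 1573 per kb. Col27a1 and Col4a2 followed at 1102 ± 102 and 1055 ± 64.7, so that these 2 and Col4a4 do not differ beyond their spread. Col18a1 stood at 909 ± 15.4 and Col4a5 at 476 ± 28.4. Col1a2 at 406 ± 19.1 and Col3a1 at 314 ± 175 per kb overlapped. Col1a1 came only after Col14a1 and Col15a1, at 170.4 ± 64.8 per kb, and its values overlap with theirs. Basement membrane chains made up between 66.3% and 79.0% of the per-kb total of the 44 genes over the 9 libraries.

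Types I and III together made up 7.73%, 6.62% and 11.2% of the per-kb collagen total in WT 1, 2 and 3. The shares were 13.3%, 14.9% and 10.3% in KO 1, 2 and 3, and 5.41%, 5.48% and 5.48% in DKO 1, 2 and 3. DKO shares lie below those of every other library, while KO 3 lies inside the WT range.

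The promoters of Col3a1 and Col1a2 are shown because these genes had the lowest p-values of the fibrillar collagens after Col1a1 in DKO against KO. Both come from RefSeq on GRCm38.p6, where 35 of the 44 genes matched an entry. They are printed 5′ to 3′ on the plus strand, which is the coding strand of both. For Col3a1 the 250 bases before its start are given, chr1:45311288-45311537. For Col1a2 the window ends at the base before the start of its main GENCODE M21 transcript. Other annotated Col1a2 exons lie upstream, so the window is inside the annotated gene, which begins at 4504814. Only the 123 bases before that transcript start that no annotated Col1a2 exon covers are given, chr6:4505370-4505492. Capitals mark matches on either strand to 3 motifs: the CCAAT box, searched by the letters of its name, the TATA box, searched as TATAAA, and the GC box, searched as GGGCGG.
Col3a1: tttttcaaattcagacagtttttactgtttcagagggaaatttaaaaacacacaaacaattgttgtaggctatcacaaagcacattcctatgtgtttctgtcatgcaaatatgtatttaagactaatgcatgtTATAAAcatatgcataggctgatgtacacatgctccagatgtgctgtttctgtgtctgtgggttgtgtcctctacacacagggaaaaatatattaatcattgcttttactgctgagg
Col1a2: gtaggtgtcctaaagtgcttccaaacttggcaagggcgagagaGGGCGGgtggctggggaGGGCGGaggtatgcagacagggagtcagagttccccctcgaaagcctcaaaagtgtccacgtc

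The Col3a1 window holds 1 TATAAA, found in 12.4% of 32851 promoter windows of the same length, and neither other motif. The Col1a2 window holds 2 GGGCGG, a motif with at least 1 match in 26.7% of windows of its length, and neither other motif. The windows share no match of these motifs, and a match is a description, not a binding site.

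Type I collagen is a trimer of 2 Col1a1 chains and 1 Col1a2 chain. Col1a1 (chromosome 11, 94936224 to 94953042 on the plus strand, GENCODE M21 on GRCm38) had 899.9, 693 and 1438 normalized counts in WT 1, 2 and 3. It had 2469.8, 2589 and 1543 in KO 1, 2 and 3, and 404, 608 and 557 in DKO 1, 2 and 3. The 3 groups do not overlap: every KO library was above every WT library, and every DKO library was below both. KO 3 and WT 3 lay next to each other, at 1543 and 1438. The means were 1010.3 ± 385 in WT, 2201 ± 573 in KO and 523 ± 106 in DKO (SD, n = 3).

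Col1a1 fell by 2.06 ± 0.29 on the log2 scale in DKO against KO (adjusted p = 0.0335, limma, lower in 3 of 3 DKO libraries). In KO against WT its log2 fold change was 1.15 ± 0.29 (adjusted p = 0.0791), and in DKO against WT -0.90 ± 0.29 (adjusted p = 0.284); neither passed the test. Its call in DKO against KO was lost without WT 1 (adjusted p = 0.0540), KO 1 (0.113), KO 2 (0.140), DKO 1 (0.102), DKO 2 (0.0895) or DKO 3 (0.0543). It was also lost in edgeR on 7 libraries (adjusted p = 0.189), while the log2 fold change stayed between -2.29 and -1.88 over all 16 alternatives.

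Col1a2 (chromosome 6, 4504814 to 4541544) had 2209, 2055 and 2249 normalized counts in WT, 3616, 3937 and 1994 in KO, and 1308, 1791 and 1522 in DKO. KO 3 was below all WT libraries, whereas the DKO libraries were below both other groups without overlap. The log2 fold change was 0.49 ± 0.23 in KO against WT (adjusted p = 0.300) and -1.0 ± 0.23 in DKO against KO (adjusted p = 0.116). Without KO 3 these were 0.80 and -1.30, and both passed the test.

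Type III collagen is a trimer of Col3a1 chains and is laid down with type I in soft tissue. Col3a1 had 1383, 1004 and 2852 normalized counts in WT, 4004, 4522 and 2374 in KO, and 631, 1101 and 1258 in DKO. WT 3 exceeded KO 3, so WT and KO overlap, and all DKO libraries were below all KO libraries. Its log2 fold change was 1.15 ± 0.41 in KO against WT (adjusted p = 0.181) and -1.87 ± 0.41 in DKO against KO (adjusted p = 0.1). With WT 3 and KO 3 both left out, it was called in both comparisons, at 1.85 and -2.15.

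**Figure D1:**
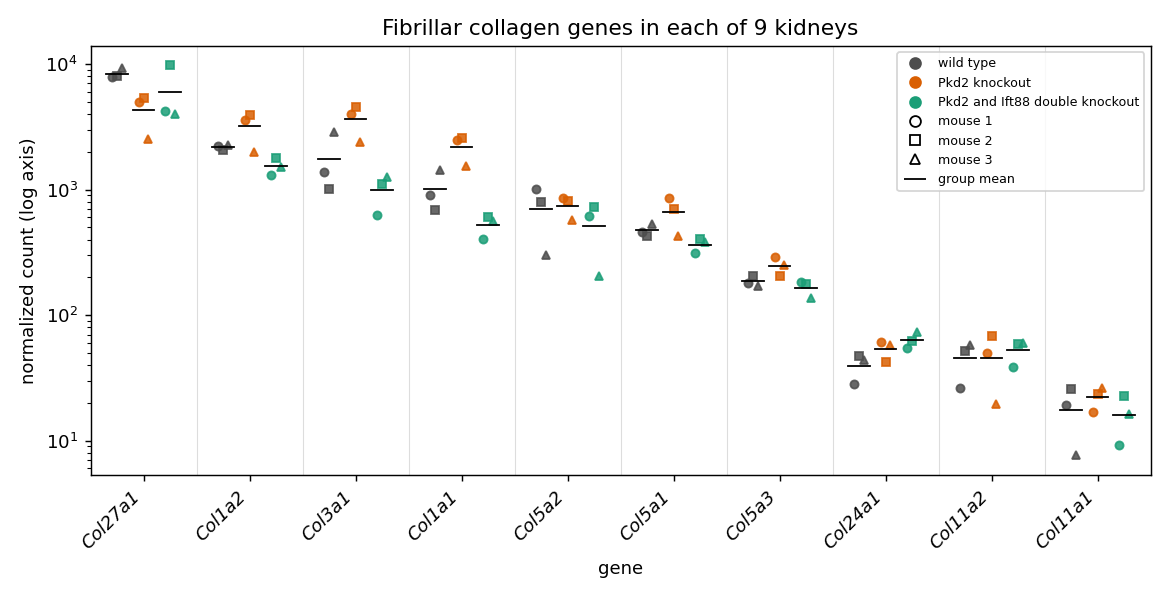
Normalized counts of the 10 tested fibrillar collagens in each of the 9 libraries, on a log axis, with colours for groups, symbols for mouse number and horizontal lines for group means. The 3 DKO values of Col1a1, between 404 and 608, sit below all WT and KO values, and for Col27a1 every KO value is below the WT values.

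The type V chains Col5a1, Col5a2 and Col5a3, of which the first and last were added after their values were seen, nucleate fibrils inside type I collagen. Col5a1 had 460.0, 427 and 536 normalized counts in WT, 861, 699.9 and 428 in KO, and 312, 401 and 380.4 in DKO. Col5a3 had 179, 206 and 171 in WT, 288, 207 and 249 in KO, and 182, 178 and 137 in DKO. For both genes, all DKO libraries were below all KO libraries, with log2 fold changes of -0.81 ± 0.23 and -0.58 ± 0.17 (adjusted p = 0.215 and 0.230). Col5a2 had 1017, 800.1 and 302 in WT, 860.0, 806 and 573 in KO, and 616, 724 and 206 in DKO. WT 3 and DKO 3 were low for Col5a2 and the groups overlap in every comparison.

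Col27a1, which encodes a fibrillar chain known from cartilage, was the most abundant fibrillar gene. It had 7823, 8067 and 9271 normalized counts in WT, 4974, 5357 and 2510.1 in KO, and 4228, 9749 and 3977 in DKO. All KO libraries were below all WT libraries, with a log2 fold change of -1.04 ± 0.36 (adjusted p = 0.178), and DKO 2 alone of the DKO libraries was above the WT range. Its relative Col24a1 was scarce, at 39.7 ± 10.2 normalized counts in WT, 53.7 ± 10.3 in KO and 63.4 ± 8.98 in DKO (SD, n = 3). Every DKO library exceeded every WT library for Col24a1, and the log2 fold change was 0.69 ± 0.26 (adjusted p = 0.340).

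Over the 10 tested fibrillar collagens, the median log2 fold change was 0.44 in KO against WT, -0.64 in DKO against KO and -0.43 in DKO against WT. The medians of all genes were 0.00, 0.00 and -0.00. Single libraries did not all share these shifts. As log2 differences from the WT mean, the class medians were 0.65, 0.56 and 0.15 in KO 1, 2 and 3. They were -0.66, 0.08 and -0.38 in DKO 1, 2 and 3, and -0.07, 0.05 and 0.16 in WT 1, 2 and 3. KO 3 and DKO 2 thus lay in the WT range. DKO libraries were below KO libraries without overlap for 5 of the 10, which are Col1a1, Col1a2, Col3a1, Col5a1 and Col5a3. Over all 37 collagens this held for 7, or 18.9%, against 7.78% of all genes, and DKO was above KO for 1, or 2.7%, against 7.4%. KO libraries were above WT libraries without overlap for 5 of 37 collagens, or 13.5%, against 12.4% of all genes, and below them for 2, or 5.41%, against 12.8%. DKO libraries were below WT libraries without overlap for 5 of 37, or 13.5%, against 9.24%, and above them for 2, or 5.41%, against 9.1%.

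None of the 8 basement membrane collagens was called in any comparison, by limma, edgeR or DESeq2. Before adjustment, at a p below 0.05, Col4a3 and Col4a4 were higher in KO than in WT, Col15a1 was lower in DKO than in KO, and 0 differed in DKO against WT. The 2 higher in KO are 25.0% of the class, against 9.36% of all genes. The 1 lower in DKO against KO is 12.5%, against 6.49%. Over the 8 genes, median log2 fold changes were 0.24, -0.15 and -0.03 for KO against WT, DKO against KO and DKO against WT. The first was 0.13 without KO 2, the second -0.044 without DKO 1, and the third turned to 0.11 without DKO 1. Over all fits that leave out 1 library they ranged from 0.13 to 0.36, from -0.23 to -0.044 and from -0.092 to 0.11.

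The 6 type IV genes lie in 3 pairs whose members are transcribed in opposite directions from neighbouring starts. The first exons of Col4a1 (chromosome 8, 11198423 to 11312826, minus strand) and Col4a2 (11312805 to 11449287, plus strand) overlap in GENCODE M21, and the starts of Col4a3 and Col4a4 on chromosome 1 are 71 bases apart. Whether the authors counted by strand is not given in the sources used here, so reads in the short overlap of Col4a1 and Col4a2 cannot be assigned with certainty.

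Col4a1 had 8899, 9722 and 10881 normalized counts in WT, 12786, 13243 and 8832 in KO, and 6331, 9725 and 11888 in DKO. Col4a2 had 6351, 6897 and 7171 in WT, 8612, 9289 and 6450.1 in KO, and 4552, 7018 and 7919 in DKO. Both genes were high in KO 1 and KO 2 and low in DKO 1, and their groups overlap in all comparisons. Their log2 fold changes were 0.22 ± 0.23 and 0.24 ± 0.20 in KO against WT (adjusted p = 0.649 and 0.568).

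Col4a3 and Col4a4 encode the α3 and α4 chains, whose loss causes Alport syndrome. Col4a3 had 18671, 15704 and 13452 normalized counts in WT, 24292, 19894 and 22976 in KO, and 14659, 23272 and 23067 in DKO. Col4a4 had 12118, 11449 and 10403 in WT, 14717, 13668 and 14981 in KO, and 11265, 14222 and 14867 in DKO. For both, every KO library exceeded every WT library, KO 3 included, while DKO 1 lay in the WT range and DKO 2 and DKO 3 above it. The 5 podocyte markers all had lower means in KO than in WT. Nphs1 and Podxl had no overlap, which is 40.0% of that list against 12.8% of all genes. By limma 0 of the 5 were called, and 1 was lower at an unadjusted p below 0.05. The part of podocytes in these values was not tested. The log2 fold changes of Col4a3 and Col4a4 in KO against WT were 0.50 ± 0.19 and 0.35 ± 0.11 (adjusted p = 0.208 and 0.131).

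The X-linked pair Col4a5 and Col4a6, named after their values were seen, differed in level but little between groups. Col4a5 ranged from 2899.9 to 3481 normalized counts over the 9 libraries and Col4a6 from 128 in WT 3 to 241 in KO 2. Col18a1 and Col15a1 encode the proteoglycan-like collagens of basement membrane zones, and the end of each can be released as a fragment. Col18a1 had 6063, 6192 and 6271 in WT, 6560.4, 6887 and 4558 in KO, and 4484, 6469 and 5997 in DKO. KO 3 and DKO 1 were its low libraries, and its log2 fold change in KO against WT was -0.06 ± 0.17 (adjusted p = 0.881). Col15a1, also named after its values were seen, had 1053, 918 and 1258 in WT, 1726, 1489 and 788 in KO, and 619, 924 and 824 in DKO. Its groups overlap, with a log2 fold change of -0.70 ± 0.28 in DKO against KO (adjusted p = 0.391).

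**Figure D2:**
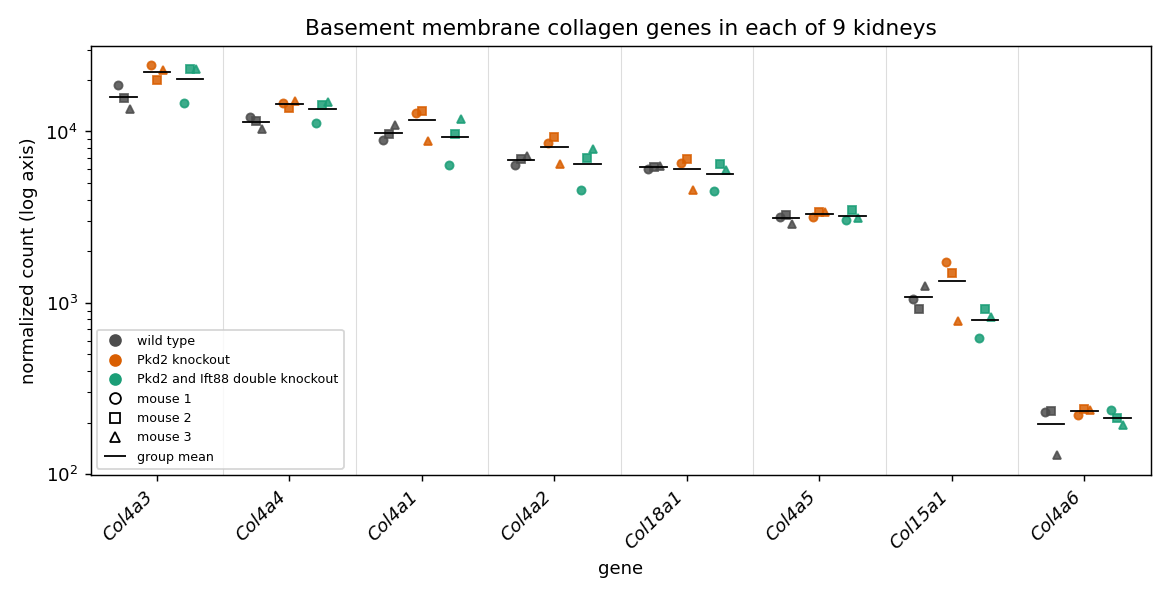
Normalized counts of the 8 basement membrane collagens in each library, on a log axis, with colours for groups, symbols for mouse number and horizontal lines for group means. For Col4a3 and Col4a4 all KO values are above the WT values, whereas for Col4a1, Col4a2 and Col18a1 the library KO 3 or DKO 1 is the lowest of its group.

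Among the other collagens, 0 of 19 tested genes were called in each comparison by limma, edgeR and DESeq2. DESeq2 gave no adjusted p for 1 of them in KO against WT, 1 in DKO against KO and 4 in DKO against WT. At an unadjusted p below 0.05, limma gave 2 higher and 2 lower in KO against WT, 2 higher and 3 lower in DKO against KO, and 1 higher and 0 lower in DKO against WT. In KO against WT these are 10.5% and 10.5% of the class, against 9.36% and 8.67% of all genes. In DKO against KO they are 10.5% and 15.8%, against 4.19% and 6.49%. The 1 higher in DKO against WT is 5.26%, against 5.93%. The class medians were 0.01, -0.05 and -0.25 for KO against WT, DKO against KO and DKO against WT. The median in KO against WT had no stable direction: it was 0.30 without KO 3 and -0.19 without WT 3.

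Type VI collagen forms beaded filaments around cells, and Col6a1, Col6a2 and Col6a3 encode its common trimer. Col6a1 had 668, 634 and 740.2 normalized counts in WT, 1093, 840.1 and 589.7 in KO, and 454, 576 and 500.2 in DKO. Col6a2 had 455, 425 and 491 in WT, 732, 582 and 376 in KO, and 262, 398 and 311 in DKO. Col6a3 had 862, 737 and 1031 in WT, 1496, 1111 and 524 in KO, and 575, 879.9 and 739.8 in DKO. KO 1 and KO 2 were above all WT libraries for each of the 3 genes, and KO 3 was below them. In DKO against KO the log2 fold changes were -0.68 ± 0.20, -0.77 ± 0.23 and -0.41 ± 0.34 (adjusted p = 0.226, 0.247 and 0.773). Only Col6a1 had all DKO libraries below all KO libraries. Without KO 3, Col6a1 and Col6a2 passed the test, at -0.92 and -1.03.

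The alternative type VI chains differed from the common ones. Col6a6 had 755, 2123 and 396 normalized counts in WT, 1371, 1221 and 326 in KO, and 1165, 344 and 403 in DKO. The lowest value was in KO 3 and the highest in WT 2, and the groups overlap in every comparison. Col6a4 was scarce, with 29.1, 55.2 and 59.9 in WT, 9.93, 12.1 and 33.1 in KO, and 26.5, 41.7 and 44.1 in DKO. KO 1 and KO 2 were below all other libraries for Col6a4, and KO 3 lay in the WT range. Its log2 fold change was -1.46 ± 0.47 in KO against WT (adjusted p = 0.142).

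Col12a1 and Col14a1 encode collagens that bind along type I fibrils. Col12a1 had 547, 578 and 403 normalized counts in WT, 894, 856 and 673 in KO, and 521, 389.6 and 366 in DKO. All KO libraries, KO 3 included, were above all WT and all DKO libraries. The log2 fold change was 0.67 ± 0.19 in KO against WT (adjusted p = 0.102) and -0.93 ± 0.19 in DKO against KO (adjusted p = 0.0814), the lowest adjusted p among collagens in that comparison after Col1a1. Col14a1 had 1695, 1395 and 1012 in WT, 2107, 2476 and 1197 in KO, and 1054, 1983 and 1627 in DKO, and its groups overlap.

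Col8a1 encodes a short-chain network collagen of vessels and of the cornea. It had 212, 303 and 306 normalized counts in WT, 645, 706 and 300.2 in KO, and 446, 879 and 606 in DKO. Unlike for Col1a1, every DKO library exceeded every WT library, and KO 3 lay in the WT range. The log2 fold change was 0.93 ± 0.35 in KO against WT (adjusted p = 0.202), 0.26 ± 0.35 in DKO against KO (adjusted p = 0.877) and 1.20 ± 0.35 in DKO against WT (adjusted p = 0.241).

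Col19a1 and Col23a1 were the remaining collagens of this class with a pair of groups that did not overlap, and both were named after their values were seen. Col19a1, a basement membrane zone collagen, had 379, 321 and 291 normalized counts in WT, 134, 150.4 and 163 in KO, and 227, 89.7 and 313 in DKO. All its KO libraries were below all WT libraries, with a log2 fold change of -1.14 ± 0.38 (adjusted p = 0.158). Col23a1, a transmembrane collagen, had 209, 226 and 219 in WT, 151, 161 and 212 in KO, and 258, 268 and 218 in DKO. Its DKO libraries were all above its KO libraries, with a log2 fold change of 0.52 ± 0.15 (adjusted p = 0.231).

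The remaining tested collagens of this class are Col6a5, Col7a1, Col8a2, Col9a3, Col13a1, Col16a1, Col20a1, Col25a1 and Col26a1, and their groups overlap in all 3 comparisons. Col16a1 was the most abundant of them, from 335 to 565 normalized counts over the 9 libraries. Col6a5 spread most, from 3.27 in WT 3 to 69.3 in WT 1. The type XI chains Col11a1 and Col11a2 of the fibrillar class were as scarce, from 7.62 to 26.3 and from 19.5 to 68.2 normalized counts. The 7 untested collagens, which include the chains of hypertrophic cartilage (Col10a1) and of epithelial anchoring structures (Col17a1), reached at most 17.8 normalized counts, for Col17a1 in KO 2.

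**Figure D3:**
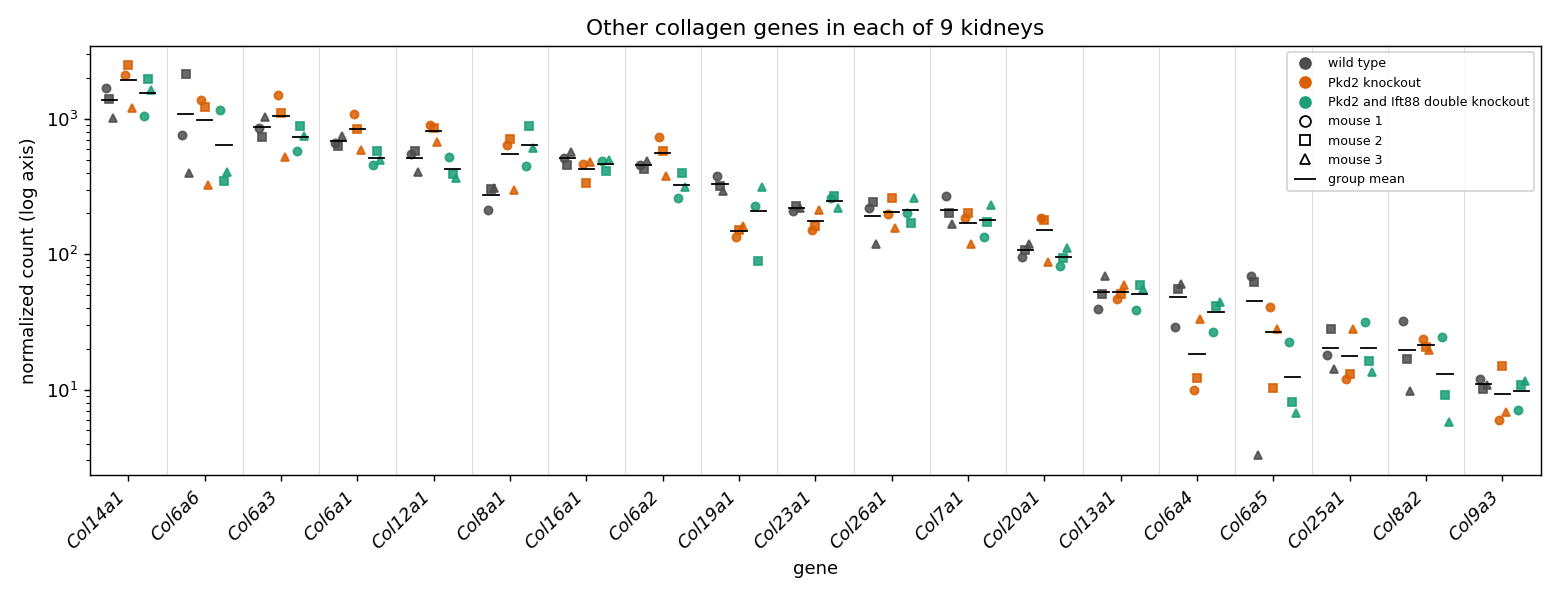
Normalized counts of the 19 tested collagens outside the fibrillar and basement membrane classes in each library, on a log axis, with colours for groups, symbols for mouse number and horizontal lines for group means. For Col12a1 the KO values, between 673 and 894, lie above all WT and DKO values, and for Col8a1 the DKO values, between 446 and 879, lie above the WT values.

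**Figure D4:**
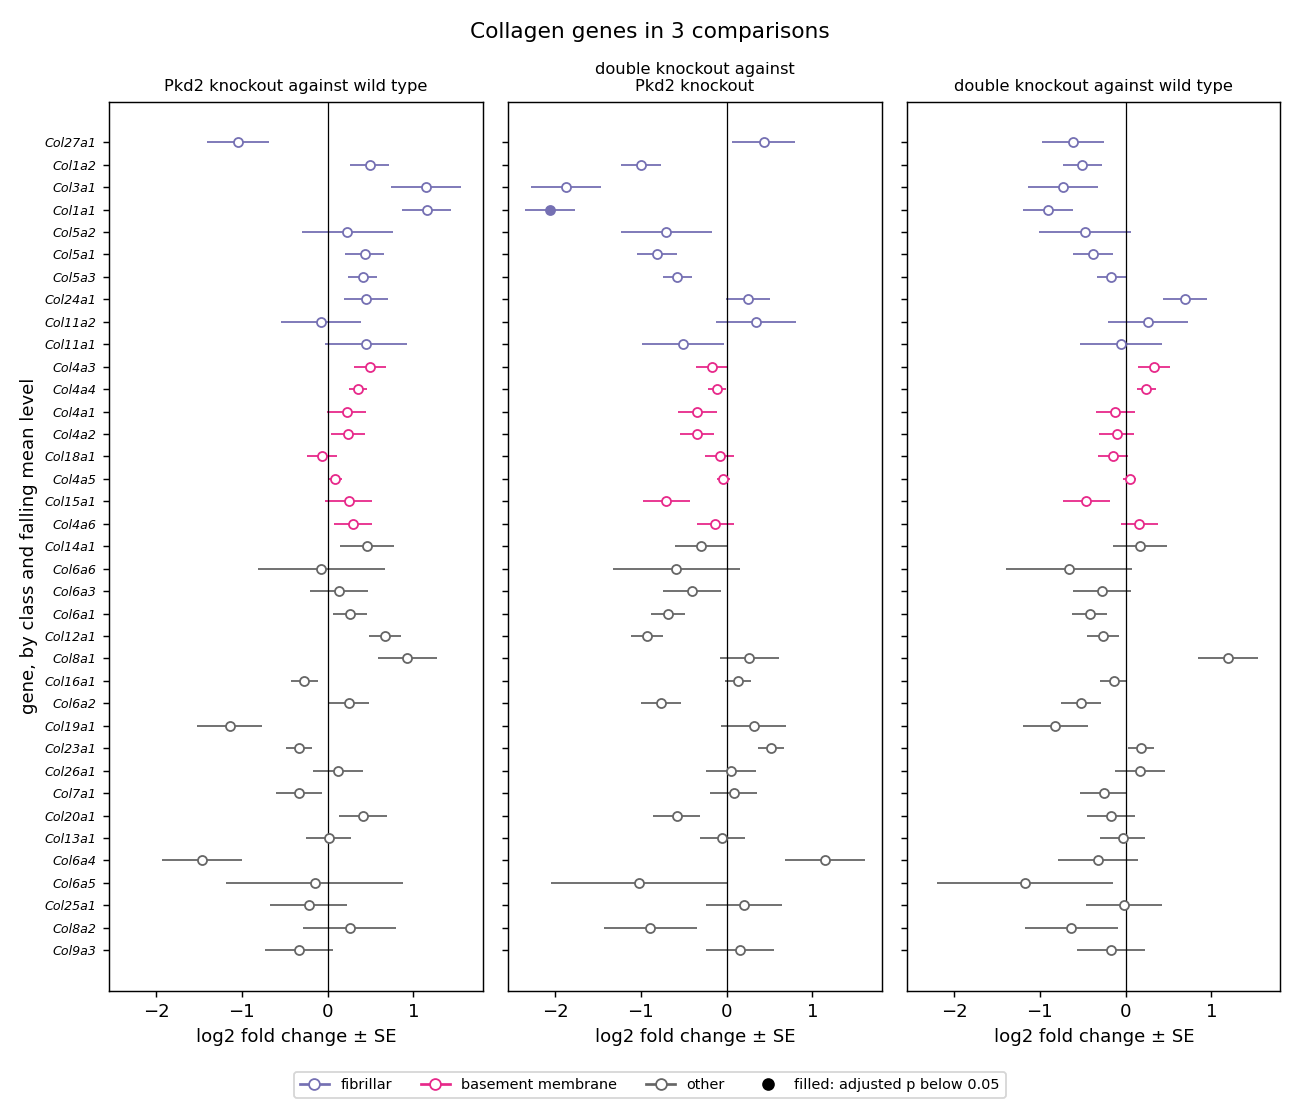
Log2 fold changes of the 37 tested collagens in the 3 comparisons, with lines for standard errors from the limma fit, colours for the 3 classes and a filled point where the adjusted p was below 0.05. The one filled point is Col1a1 in DKO against KO, at -2.06.

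Ratios between chains were then compared within each library, on the per-kb scale, so that library scaling cancels. The ratio of Col4a1 to Col4a2 lay between 1.34 and 1.48 in all 9 libraries, a 1.11-fold range. That of Col4a3 to Col4a4 lay between 1.53 and 1.95, and that of Col6a1 to Col6a2 between 2.11 and 2.54. By comparison, the level of Col4a1 itself went from 957 per kb in DKO 1 to 2002 in KO 2.

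The type I chains spanned a wider range, 2.5-fold over the 9 libraries. The ratio of Col1a1 to Col1a2 was 0.367, 0.304 and 0.577 in WT, 0.616, 0.593 and 0.698 in KO, and 0.279, 0.306 and 0.330 in DKO. Every KO library was above every WT and DKO library, KO 3 being the highest, and DKO overlapped with the lower WT libraries. The means were 0.416 ± 0.143 in WT, 0.636 ± 0.0550 in KO and 0.305 ± 0.0257 in DKO (SD, n = 3). The ratio of Col5a1 to Col5a2 varied most of the 9 pairs computed, from 0.356 in WT 1 to 1.46 in DKO 3, and it was high in WT 3 and DKO 3, where Col5a2 was low.

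**Figure D5:**
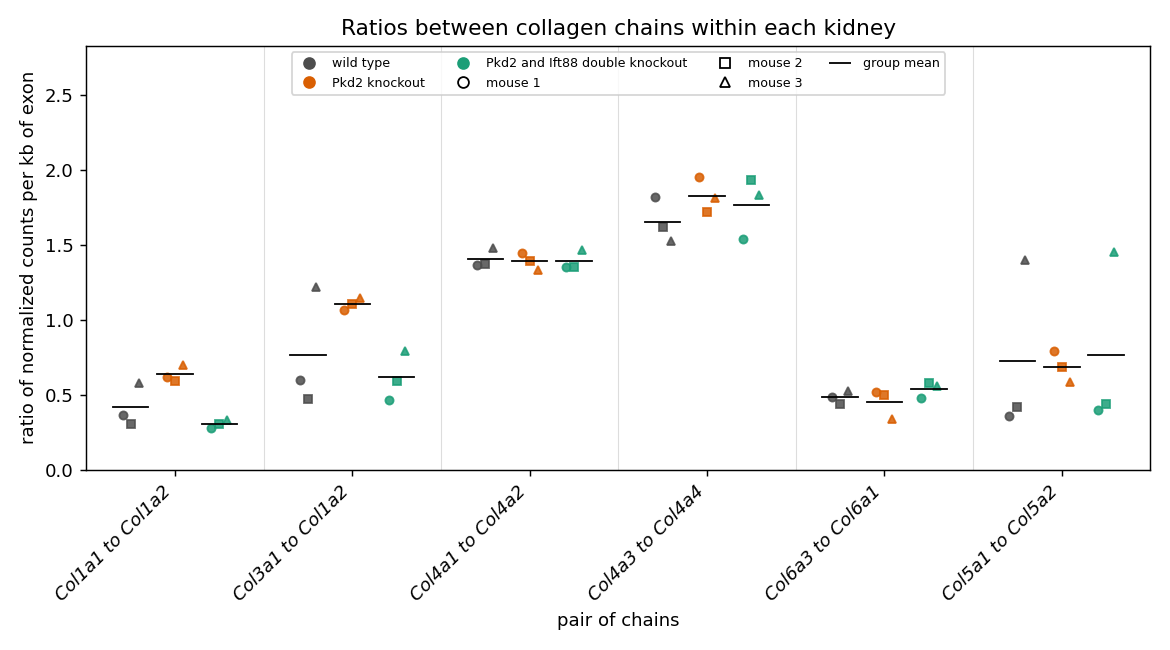
Ratio of partner chains in each library, computed from normalized counts per kb, with colours for groups, symbols for mouse number and horizontal lines for group means. The ratio of Col1a1 to Col1a2 is between 0.593 and 0.698 in KO and between 0.279 and 0.330 in DKO, while that of Col4a1 to Col4a2 stays between 1.34 and 1.48.

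Genes that act on collagen chains were counted by role from fixed lists. In the secretory pathway, prolyl and lysyl hydroxylases, glycosyltransferases and chaperones modify and fold the chains. Of 18 tested genes of this list, 0 were called in any comparison by limma, edgeR or DESeq2, with 1 higher in KO against WT, 1 lower in DKO against KO and 1 lower in DKO against WT at an unadjusted p below 0.05. Each is 5.56% of the list, against 9.36%, 6.49% and 5.81% of all genes. The gene with the lowest p was Colgalt1, a collagen galactosyltransferase, at 1222, 1131 and 1299 normalized counts in WT, 1427, 1504 and 1408 in KO and 1335, 1345 and 1214 in DKO. Its KO libraries were above the others, with a log2 fold change of 0.25 ± 0.08 in KO against WT (adjusted p = 0.136).

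Outside the cell, procollagen ends are cut off before fibrils form. Of 7 tested processing genes, 0 were higher and 1 was lower in DKO against KO, which is Adamts2, the protease that removes the amino-terminal propeptide of types I to III. This is 14.3% of the list, against 0.267% of all genes. No processing gene was called in the other comparisons by limma, edgeR or DESeq2. With no adjustment, p was below 0.05 for 1 higher and 1 lower in KO against WT, 1 lower in DKO against KO, and 1 higher and 3 lower in DKO against WT. The last 3 are 42.9% of the list, against 5.81% of all genes. Each count of 1 is 14.3% of the list. The shares of all genes were 9.36% higher and 8.67% lower in KO against WT. They were 6.49% lower in DKO against KO and 5.93% higher in DKO against WT. Adamts2 had 209.9, 172 and 196 normalized counts in WT, 328, 264 and 213 in KO, and 85.5, 104 and 124 in DKO. The 3 groups do not overlap, with KO highest and DKO lowest, the order also found for Col1a1. It fell by 1.35 ± 0.19 on the log2 scale in DKO against KO (adjusted p = 0.0358, limma). The call was lost without any one of WT 1, WT 2, KO 1, KO 2, DKO 1 or DKO 2 (highest adjusted p = 0.147). It was also lost with quantile normalization (adjusted p = 0.0637) and, on 7 libraries, in edgeR (0.189) and limma (0.203), and it was kept in DESeq2.

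Lysyl oxidases and a transglutaminase crosslink the finished fibrils. None of the 6 crosslinking genes was called by limma or edgeR in any comparison, and DESeq2 called Loxl2 lower in DKO against KO. Without KO 3, limma called Loxl2 lower as well, which is 16.7% of the list against 0.635% of all genes. At an unadjusted p below 0.05, limma gave 1 higher in KO against WT, 4 lower in DKO against KO and 2 lower in DKO against WT. These are 16.7%, 66.7% and 33.3% of the list, against 9.36%, 6.49% and 5.81% of all genes. Loxl2 had 156, 151 and 177 normalized counts in WT, 234, 209 and 117 in KO, and 51.9, 87.0 and 56.5 in DKO. Its DKO libraries were below all others, with a log2 fold change of -1.48 ± 0.28 in DKO against KO (adjusted p = 0.0721). The median over the 6 genes was -0.66 in DKO against KO, against 0.00 over all genes.

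Small proteoglycans coat fibrils, and Dcn, which encodes decorin, had the lowest p of the 8 tested. Dcn had 1344, 1101 and 709.7 normalized counts in WT, 2039, 1690.4 and 1553 in KO, and 1269.9, 941 and 1177 in DKO. All KO libraries were above all others, with log2 fold changes of 0.78 ± 0.22 in KO against WT (adjusted p = 0.105) and -0.64 ± 0.22 in DKO against KO (adjusted p = 0.311). limma and edgeR called 0 of the 8 in each comparison, and DESeq2 called Dcn higher in KO against WT. Without KO 3, limma called 1 gene, Bgn, lower in DKO against KO, which is 12.5% of the list against 0.635% of all genes. At an unadjusted p below 0.05, limma gave 2 higher and 0 lower in KO against WT, 1 higher and 3 lower in DKO against KO, and 1 higher and 0 lower in DKO against WT. The 2 higher in KO against WT are 25.0% of the list against 9.36% of all genes, and the 3 lower in DKO against KO are 37.5% against 6.49%. In each place where 1 was higher, that is 12.5%, against 4.19% in DKO against KO and 5.93% in DKO against WT.

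Laminins, nidogens and other partners of type IV collagen numbered 18 tested genes, and limma, edgeR and DESeq2 called 0 of them in each comparison. With p unadjusted and below 0.05, 5 were higher in KO against WT, 3 were lower in DKO against KO and 0 differed in DKO against WT. The 5 are 27.8% of the list against 9.36% of all genes, and the 3 are 16.7% against 6.49%. Pxdn, the peroxidase that crosslinks type IV collagen, had the lowest p in DKO against KO, with 1146, 1287 and 966 normalized counts in WT, 2071, 1861 and 1570.4 in KO, and 851, 1014 and 1335 in DKO. Its KO libraries were above all others, with log2 fold changes of 0.70 ± 0.18 in KO against WT (adjusted p = 0.0810) and -0.80 ± 0.18 in DKO against KO (adjusted p = 0.104). Lama4, a laminin chain of vessel walls, had the lowest p of this list in KO against WT, at 0.54 ± 0.13 (adjusted p = 0.0743).

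Collagen receptors include integrins and discoidin domain receptors. Of 8 tested, 0 were called in any comparison by the 3 tools, with 0 in KO against WT, 2 lower in DKO against KO and 1 lower in DKO against WT at an unadjusted p below 0.05. The lower ones are 25.0% and 12.5% of the list, against 6.49% and 5.81% of all genes. The 2 are Itgb1, which encodes the shared β1 integrin chain, and Ddr2, a receptor for fibrillar collagen, with log2 fold changes of -0.29 ± 0.09 and -0.51 ± 0.16 (adjusted p = 0.261 and 0.271). Without KO 3, limma called Ddr2 lower in DKO against KO, which is 12.5% of the list against 0.635% of all genes.

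Markers of fibroblasts and of macrophages were read beside these values. The sum over 7 fibroblast markers was 3329 to 4604 normalized counts in WT, 3136 to 4318 in KO and 2946 to 3715 in DKO, so the groups overlap and no marker was at 0 in any library. Most of this sum is Pdgfra, Pdgfrb and Acta2. Postn encodes a matrix protein of activated fibroblasts. It had 222, 214 and 84.9 in WT, 336, 224 and 243 in KO, and 101, 97.0 and 94.9 in DKO. Pdgfra, a fibroblast receptor, ranged from 979.9 to 1193 over the 9 libraries. The 7 markers did not move together: KO means were 154%, 165%, 140% and 109% of WT for Postn, Thy1, Meg3 and Pdgfrb. They were 93.2%, 87.9% and 95.1% for Pdgfra, Acta2 and Gli1. By limma 0 of the 7 were called in any comparison. The sum over 5 macrophage markers was 3856 to 4413 in WT, 4585 to 5564 in KO and 4123 to 4438 in DKO, highest in KO without overlap with WT or DKO. Most of this sum is Csf1r, at 3084 ± 126 in WT and 3424 ± 130.3 in KO (SD, n = 3), and Csf1r alone of the 5 had no overlap of KO and WT. In KO 3 the other 4 markers, Adgre1, C1qa, C1qb and Cd68, lay in the WT range. The part of these cells in the values of Col1a1 and Adamts2 was not tested.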

How the data were processed

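The authors deposited one table of normalized counts per gene, a signal scaled between libraries, for 9 libraries. The submitters' processing notes name STAR 2.5.0 (an aligner), HTSeq 0.6.1 (a read counter) and DESeq2. Build, annotation and strandedness: not given in the sources used here. Whole reads could be recovered from the deposited normalized counts in 7 libraries (100% of values whole within 0.05), with 37056843 to 47314829 reads.

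limma 3.58.1 in R 4.3.3 was fitted to log2(normalized count + 1) over all 9 libraries and 3 groups, with an intensity trend, on 15740 genes (mean over libraries 10 or more). Calls need an adjusted p below 0.05 (Benjamini-Hochberg). edgeR 4.0.16 and DESeq2 1.42.0 were run on the recovered counts of 7 libraries, without WT 1 and KO 1. The comparisons share groups: KO enters 2 of them, and so does each other group. Replicates are described as biological, 1 library per mouse.

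The members, lists and tests were chosen with earlier results of these data known. Named collagens are those called, the 5 most abundant of each class, the 4 with the lowest p in each comparison and their partner chains. Companions are named when called or when lowest in p within their list; others are said to be named after their values were seen. Alternatives covered left-out libraries, scaling, pseudocount, filter, weights and test. One marker of the erythroid list is not reported here.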

Additional observations from a re-analysis of the deposited data

How the results depend on the processing

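In DKO against WT, 0 collagens were called under all 23 alternatives. In KO against WT the 0 called collagens became 13 with array quality weights, a fit that called 3222 of all 15740 genes. They became 4 without WT 3 and KO 3 together, 10.8% of those tested, against 3.28% of all genes. They became 1 when only these 2 groups were fitted, 1 with the replicate block, and 0 to 4 when 1 library was left out. In DKO against KO the 1 called collagen became 9 with array quality weights, a fit that called 614 of all genes. It became 9 without WT 3 and KO 3 together, 24.3% of those tested, against 1.96% of all genes. The count was 0 with the replicate block, 0 in edgeR, 0 in limma on 7 libraries and 2 in DESeq2. It was 0 to 6 when 1 library was left out. Same-numbered mice had correlations between -0.142 and 0.215, and differently numbered mice between -0.23 and 0.173. These ranges overlap and do not settle whether the numbers pair the samples. With the replicate block, Col1a1 in DKO against KO had an adjusted p of 0.0893 and Adamts2 one of 0.0916 (limma). The cause was not tested for any of these, beyond fewer libraries in those fits that leave some out.

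All genes called in KO against WT were 377, and 3222 with array quality weights, 217 with the replicate block, 11 in edgeR, 13 in limma on 7 libraries, and 70 to 436 when 1 library was left out. In DKO against KO they were 62, and 31 with quantile normalization, 614 with weights, 26 with only these groups, 15 with the block, 308 without WT 3 and KO 3, 10 in edgeR, 152 in DESeq2, 11 in limma on 7 libraries, and 8 to 154 when 1 library was left out. In DKO against WT they were 36, and 295 with weights, 20 with the block, 111 without WT 3 and KO 3, 10 in edgeR, 111 in DESeq2, 11 in limma on 7 libraries, and 18 to 58 when 1 library was left out. In DKO against KO, collagens were 2 of the 152 genes called by DESeq2 and 0 of the 10 called by edgeR. Limma on 7 libraries was added after seeing the data.

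No called fold change reversed. Uncalled log2 fold changes that changed sign in KO against WT were, over fits leaving out 1 library, Col18a1 (-0.18 to 0.12), Col5a2 (-0.30 to 0.58), Col6a3 (-0.19 to 0.57) and Col6a6 (-0.63 to 0.59). Col6a3 was also -0.10 in edgeR, -0.11 in DESeq2 and -0.19 in limma on 7 libraries. In DKO against KO they were Col18a1 (-0.27 to 0.077), Col4a3 (-0.28 to 0.055), Col4a4 (-0.19 to 0.0096) and Col8a1 (-0.12 to 0.50). In DKO against WT they were Col14a1 (-0.032 to 0.42), Col18a1 (-0.25 to 0.013), Col4a1 (-0.32 to 0.13), Col4a2 (-0.27 to 0.13) and Col5a2 (-1.0 to 0.092). Without WT 3 and KO 3 together, Col18a1 was 0.13, Col5a2 -0.12 and Col6a6 0.031 in KO against WT, Col8a1 -0.12 in DKO against KO, and Col14a1 -0.032 in DKO against WT. The cause was not tested.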
